A study of Mus musculus with 384 samples.

Results

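The genes described here are 10 early response genes: the EGR factors Egr1 and Egr2, the nuclear receptor gene Nr4a1, the KLF factors Klf2, Klf4 and Klf6, and the feedback genes Btg2, Dusp1, Zfp36 and Ier2. They were taken by name and are 10 of 23420 genes in the table. Their RNA was followed in 286 of 326 individual cells from mouse spinal cord, the cells in which S100a8 and S100a9 together reached at least 10000 TPM (a length-corrected share of each cell's RNA, which sums to 1000000 in every cell). S100a8 and S100a9 are the most abundant cytosolic protein genes of neutrophils, and these 286 cells are called neutrophils here.

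Early response genes are switched on within minutes of a signal without new protein synthesis, and their mRNAs are short-lived. Some encode transcription factors that pass the signal on, and others encode proteins that end it. Dusp1 is a phosphatase that inactivates the p38 and JNK MAP kinases, Zfp36 (tristetraprolin) binds AU-rich cytokine mRNAs and speeds their decay, and Btg2 slows proliferation and recruits mRNA deadenylases. In neutrophils, the genes of the secondary granule proteins are transcribed during maturation in bone marrow and are silent in mature circulating cells. A granule level, the mean log2(TPM + 1) of Camp, Ngp, Ltf and Lcn2, was therefore used to order the neutrophils.

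All cells carry the Optn knockout genotype, Optn being the gene of the autophagy receptor optineurin. The label gives no strain, age, allele or treatment, and cells without the knockout were not analysed here. Tissue was dissociated with Accutase, and antibodies to the surface proteins CX3CR1, CD45 and CD11b were used to sort single cells. Libraries followed SmartSeq2, which copies whole mRNAs and counts no molecular identifiers. Any part of the knockout or of the dissociation in the values cannot be told apart from the cells' own level, since all cells share both. Plates 1 and 2 are replicate 1 (154 cells) and plates 3 and 4 are replicate 2 (172 cells). The labels do not say that the replicates are different mice, so p-values measure the spread between these samples, which may be technical.

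The series names the sorted cells as microglia, and the markers did not bear this out. No cell had 3 or more of 13 microglia markers above 0, and C1qc and Trem2 are among those listed at 0 in each granule class. Neutrophil markers summed to between 125368 and 340286 TPM in the granule classes and to 2555 and 2287 TPM in the 40 other cells of the 2 replicates. These markers include S100a8 and S100a9, which set the neutrophils apart, and Ngp, Camp and Ltf, which help define the granule level. The gap between the sums thus follows in part from the selection. The highest S100a8 plus S100a9 level outside was 4019 TPM and the lowest inside was 12512 TPM. Of the 40 cells outside, 6 had Csf3r, a neutrophil marker, at 2390 to 11692 TPM, and the other 34 had at most 495 TPM. The median cell had 1681 genes above 0 (range 675 to 5707), and TPM keeps no read depth. Optn was above 0 in 0 of 326 cells, which allows a share of up to 0.920%.

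Plate by plate, neutrophils were ranked by granule level and cut into a low, a middle and a high class, which held 97, 95 and 94 cells. The median granule level was 3.30, 11.49 and 15.31, in units of log2(TPM + 1). The classes also differed in other ways that move with every result below. The median number of genes detected was 1378, 1613 and 2094.5, and the 4 granule genes took 0.356%, 4.96% and 18.7% of TPM. Cells with 5 or more proliferation genes above 0 numbered 3, 3 and 15. Of 6 genes used as monocyte markers, Ly6c2 was above 0 in 45.4%, 96.8% and 100% of the classes, and each of the others in at most 15.8% of a class. At least 2 of the 6 were above 0 in 11, 23 and 25 cells, most often Ly6c2 with 1 more. F13a1 was above 0 in 0%, 2.11% and 0% of them and in 70.0% of the other cells.

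Promoter windows of 8 of the 10 genes were taken from RefSeq (GRCm38.p6, the assembly that mm10 is built on), each 300 bases long with 250 before and 50 after the annotated start. The 3 printed below belong to the genes whose RNA varied together most closely across neutrophils. Capitals mark a full cAMP response element (CRE, TGACGTCA) in Dusp1 and Btg2 and a CArG box, the site read by serum response factor, in Zfp36. Dusp1 is at chr17:26508423-26508722, Btg2 at chr1:134079106-134079405 and Zfp36 at chr7:28379179-28379478, all on the minus strand and written 5′ to 3′ in the direction of transcription.
Dusp1: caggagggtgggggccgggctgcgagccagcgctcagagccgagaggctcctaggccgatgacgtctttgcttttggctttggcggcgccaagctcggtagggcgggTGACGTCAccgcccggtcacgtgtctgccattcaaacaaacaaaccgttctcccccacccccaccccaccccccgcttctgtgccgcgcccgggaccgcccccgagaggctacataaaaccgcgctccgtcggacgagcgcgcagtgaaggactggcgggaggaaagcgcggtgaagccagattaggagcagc
Btg2: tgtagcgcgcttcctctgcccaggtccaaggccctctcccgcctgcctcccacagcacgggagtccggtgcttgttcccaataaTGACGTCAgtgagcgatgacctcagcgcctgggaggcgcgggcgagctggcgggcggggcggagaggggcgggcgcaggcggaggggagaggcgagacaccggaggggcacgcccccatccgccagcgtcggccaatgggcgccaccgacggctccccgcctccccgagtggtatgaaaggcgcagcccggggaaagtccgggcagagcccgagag
Zfp36: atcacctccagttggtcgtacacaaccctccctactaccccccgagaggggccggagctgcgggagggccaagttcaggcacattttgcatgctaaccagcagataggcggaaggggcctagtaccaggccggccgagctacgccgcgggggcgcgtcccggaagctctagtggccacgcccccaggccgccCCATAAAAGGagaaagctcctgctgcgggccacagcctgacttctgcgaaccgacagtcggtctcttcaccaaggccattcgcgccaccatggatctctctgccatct
The CRE begins at base 108 of the Dusp1 window and at base 85 of the Btg2 window, and the CArG box spans bases 193 to 202 of the Zfp36 window. On either strand, a full CRE was found in 1.79% of all 32851 windows and a CArG box in 1.63%. Among the 8 genes, a full CRE was in windows of 2 (Btg2 and Dusp1) and a CArG box in windows of 2 (Egr2 and Zfp36). A gene was counted when any of its windows held the motif, and Egr2 has several windows, some overlapping. The shares of all windows count each window, so the 2 measures are not alike. The half-site TGACG, which each full CRE contains, was in windows of 6 of the 8 genes and in 20.8% of all windows. The GC box GGGCGG was in windows of 8 of the 8 genes and in 35.7% of all windows. An EGR motif, spelled GCGTGGGCG or GCGGGGGCG and able to overlap a GC box, was in windows of Klf2, Klf4, Nr4a1 and Zfp36 and in 3.47% of all windows. A kappaB motif was in windows of Egr2 and Nr4a1 and in 8.46% of all windows, and TATAAA was in 0 of the 8 genes and in 13.6% of windows. GC content was 67.0% for Dusp1, 72.0% for Btg2 and 63.7% for Zfp36, against a median of 52.7% over all windows. Such matches describe letters in these windows and show no binding in these cells.

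Across the neutrophils, the early genes were high where granule transcripts were low. Summed over the 10 genes, the mean level was 16026 and 20286 TPM in granule-low cells of replicates 1 and 2, and 1584 and 1730 TPM in granule-high cells. The granule-middle cells lay between, at a mean of 5450 TPM over all cells of the class. Much of the sum was Dusp1, which alone gave 9183 and 12251 TPM in granule-low cells and 292 and 404 TPM in granule-high cells. The number of genes of the 10 above 0 did not follow the order of the sums, with a median of 5 in each class. Of the genes the limma fit could test, 8 of the 10 passed a filter on low values over all neutrophils (mean TPM of at least 5 and above 0 in at least 10% of cells), and all 8 were higher in granule-low than in granule-high cells (limma, Benjamini-Hochberg adjusted p under 0.05). Egr1 passed that filter through the granule-low cells, the class in which it is high, so its call is a description. Of all 4047 genes tested, 11.6% were called higher and 4.23% lower, with a median log2 fold of 0.31. When TPM was rescaled without the 4 granule genes, S100a8, S100a9 and Rn45s, the median moved to -0.18 and the calls from 471 higher and 171 lower to 392 higher and 459 lower; 5 of the 8 genes kept their call, and Klf2, Klf6 and Ier2 lost it.

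**Figure D1:**
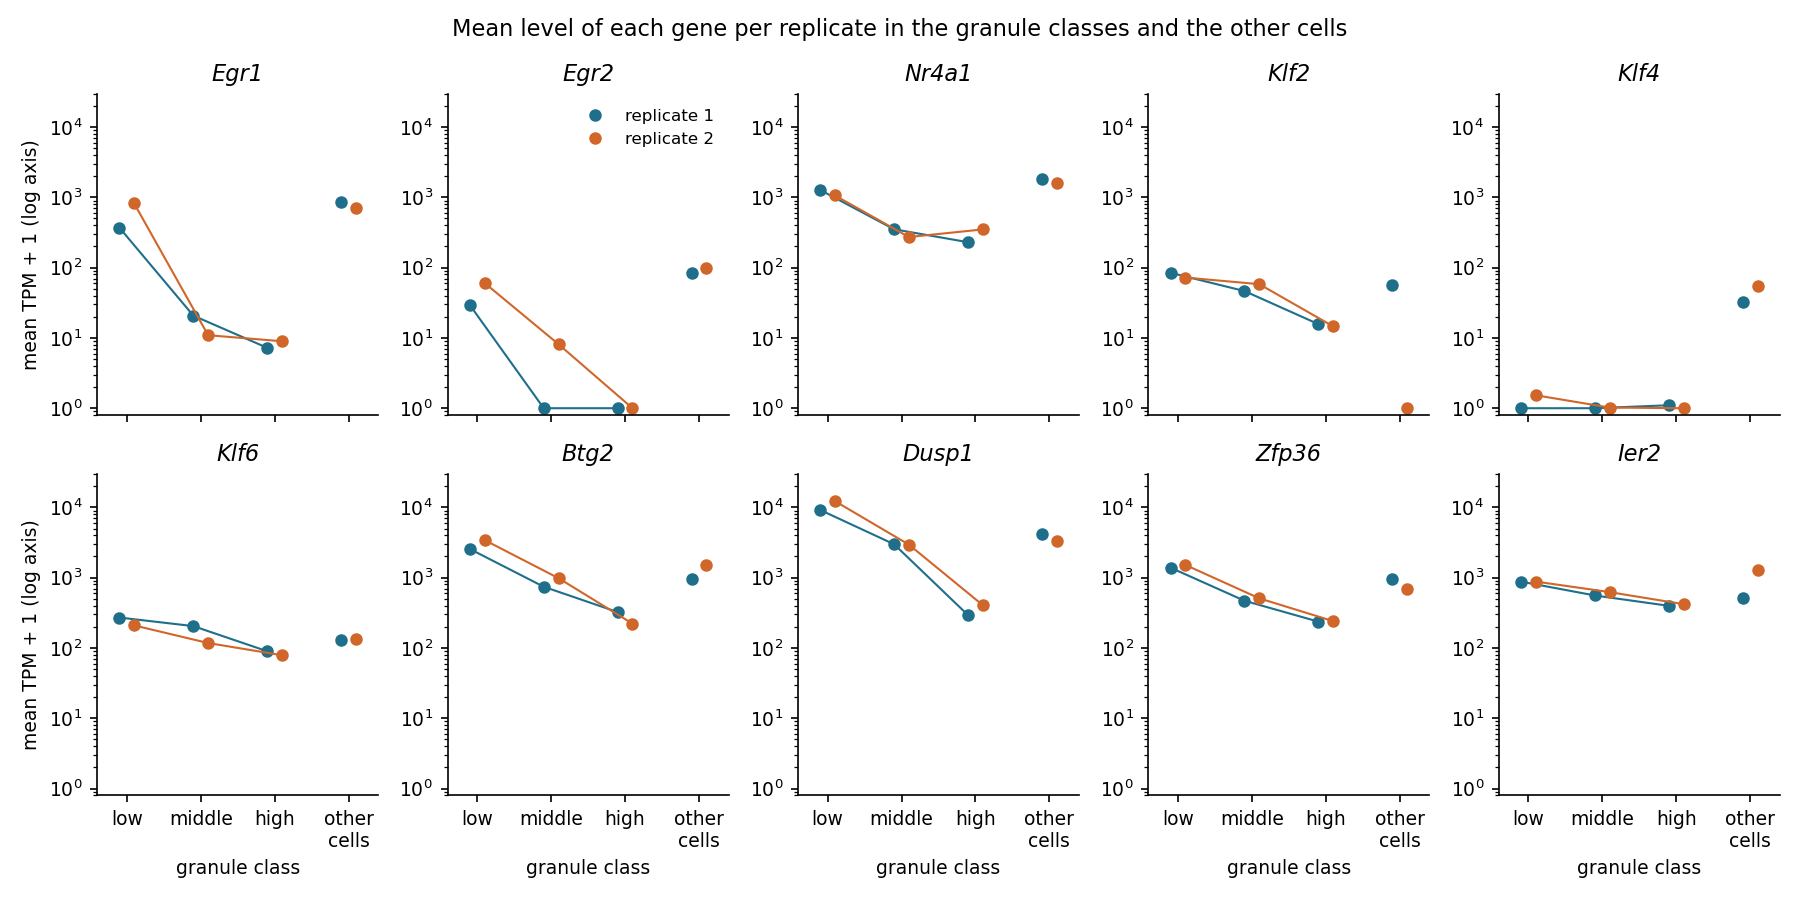
Mean TPM plus 1 (log axis) of each of the 10 genes in granule-low, granule-middle and granule-high neutrophils and in the other cells, 1 point per replicate (n = 2), with lines joining the classes of a replicate. Dusp1 falls from 9183 and 12251 TPM to 292 and 404 TPM, and Klf4 lies above 1 TPM in the other cells alone.

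Egr1, a zinc-finger factor induced through serum response factor, differed most among the 10 genes. Its mean was 370 and 816 TPM in granule-low cells, 19.7 and 9.93 TPM in granule-middle cells and 6.23 and 7.97 TPM in granule-high cells of replicates 1 and 2. The granule-low means lay above the others in both replicates. The log2 fold of granule-low over granule-high cells was 6.09 (limma, SE 0.44, n = 2). Egr1 was above 0 in 7.37% of granule-middle and 8.51% of granule-high cells, so it passed the 10% filter through the granule-low class, where it is high. Its fold is therefore given as a description. Egr1 was above 0 in few cells, 32 of 97 granule-low cells (33.0%, exact 95% binomial interval 23.8% to 43.3%) and 8 of 94 granule-high cells (8.51%, 3.75% to 16.1%). Within the cells that had it, the median was 1272 TPM in the granule-low class and 65.6 TPM in the granule-high class. The mean thus rested on few cells: the 29 highest of 286 neutrophils held 97.5% of all Egr1 TPM, and 27 of those 29 were granule-low. Along the granule level, Egr1 was above 0 in 63.0% of the 27 cells below 2, in 32.4% of the 34 cells from 2 to 4, in 15.4% of the 26 cells from 4 to 6 and in 3.13% of the 32 cells from 6 to 8.

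Egr2, the relative of Egr1 known for its role in myelination and in lymphocytes, was above 0 in 9 of 286 neutrophils. Of these 9 cells, 7 were granule-low and 2 granule-middle. Its mean was 28.4 and 59.5 TPM in granule-low cells, 0 and 7.13 TPM in granule-middle cells, and it is listed at 0 in all 94 granule-high cells, which allows a share of up to 3.19%. Egr2 did not pass the filter and was not tested in this contrast.

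Nr4a1 (Nur77), an orphan nuclear receptor, had a mean of 1271 and 1062 TPM in granule-low cells, 350.0 and 271 TPM in granule-middle cells and 229 and 349 TPM in granule-high cells. Both granule-low means lay above all others, and the order of the middle and high classes differed between replicates. The log2 fold was 2.04 (limma, SE 0.26, adjusted p = 0.0129). Detection did not follow the level, as Nr4a1 was above 0 in 66.7% and 67.3% of granule-low cells and in 60.5% and 86.3% of granule-high cells of the 2 replicates. When log values of single cells were averaged, the log2 fold was 0.88 and was not called (limma adjusted p = 0.121). The difference lay in the level among cells that had it, with a median of 1071 TPM in the granule-low class and 304 TPM in the granule-high class.

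Among the KLF factors, which bind GC-rich promoters, Klf6 and Klf2 were measured in many neutrophils and Klf4 was hardly present. Klf6 was above 0 in 58.4% of neutrophils, and its mean was 270 and 208 TPM in granule-low, 203 and 116 TPM in granule-middle and 88.7 and 77.7 TPM in granule-high cells. The log2 fold of Klf6 was 1.502 (limma, SE 0.30, adjusted p = 0.0385). Klf2, known in mouse myeloid cells as a brake on inflammatory activation, was above 0 in 23.1% of neutrophils, with means of 83.5 and 71.3 TPM in granule-low, 45.4 and 57.2 TPM in granule-middle and 14.7 and 13.6 TPM in granule-high cells. Its log2 fold was 2.37 (limma, SE 0.50, adjusted p = 0.0406). Their shares of cells did not follow the level, as Klf6 was above 0 in 58.8% of granule-low and 61.7% of granule-high cells, and Klf2 in 22.7% and 20.2%. Klf4 was above 0 in 3 of 286 neutrophils, with a highest value of 27.5 TPM, and was not tested between the classes. Limited to neutrophils with 1300 to 2000 genes detected, a comparison chosen after seeing the data, the log2 fold was 0.99 for Klf2 and 1.43 for Klf6, and neither was called by limma (adjusted p = 0.416 and 0.107). Averages of log values gave 0.65 and 0.79, also not called by limma (adjusted p = 0.173 and 0.191).

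Dusp1 was the most abundant of the 10 genes in neutrophils and had the smallest p-value of all 4047 genes tested. Its mean was 9183 and 12251 TPM in granule-low cells, 2983 and 2947 TPM in granule-middle cells and 292 and 404 TPM in granule-high cells. The classes did not overlap in their replicate means, and the log2 fold was 4.95 (limma, SE 0.11, adjusted p = 0.000468). Single cells overlapped: the median was 8891 TPM (range 0 to 49411) in the granule-low class and 69.2 TPM (range 0 to 2605) in the granule-high class. Dusp1 was above 0 in 96 of 97 granule-low cells and 52 of 94 granule-high cells. All 29 neutrophils with the highest Dusp1 were granule-low.

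The decline of Dusp1 was graded along the granule level. Its mean was 12946 and 18163 TPM in the 27 cells with a granule level below 2, and 8801 and 12431 TPM in the 34 cells from 2 to 4. From 12 to 14 it was 2171 and 2701 TPM in 31 cells, from 14 to 15 it was 958 and 837 TPM in 35 cells, and at 15 or above it was 191 and 326 TPM in 75 cells. Each of these values was lower than the one given before it in both replicates. Between 6 and 12 the replicates did not follow one order, and the step from 10 to 12 held 4 cells.

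**Figure D2:**
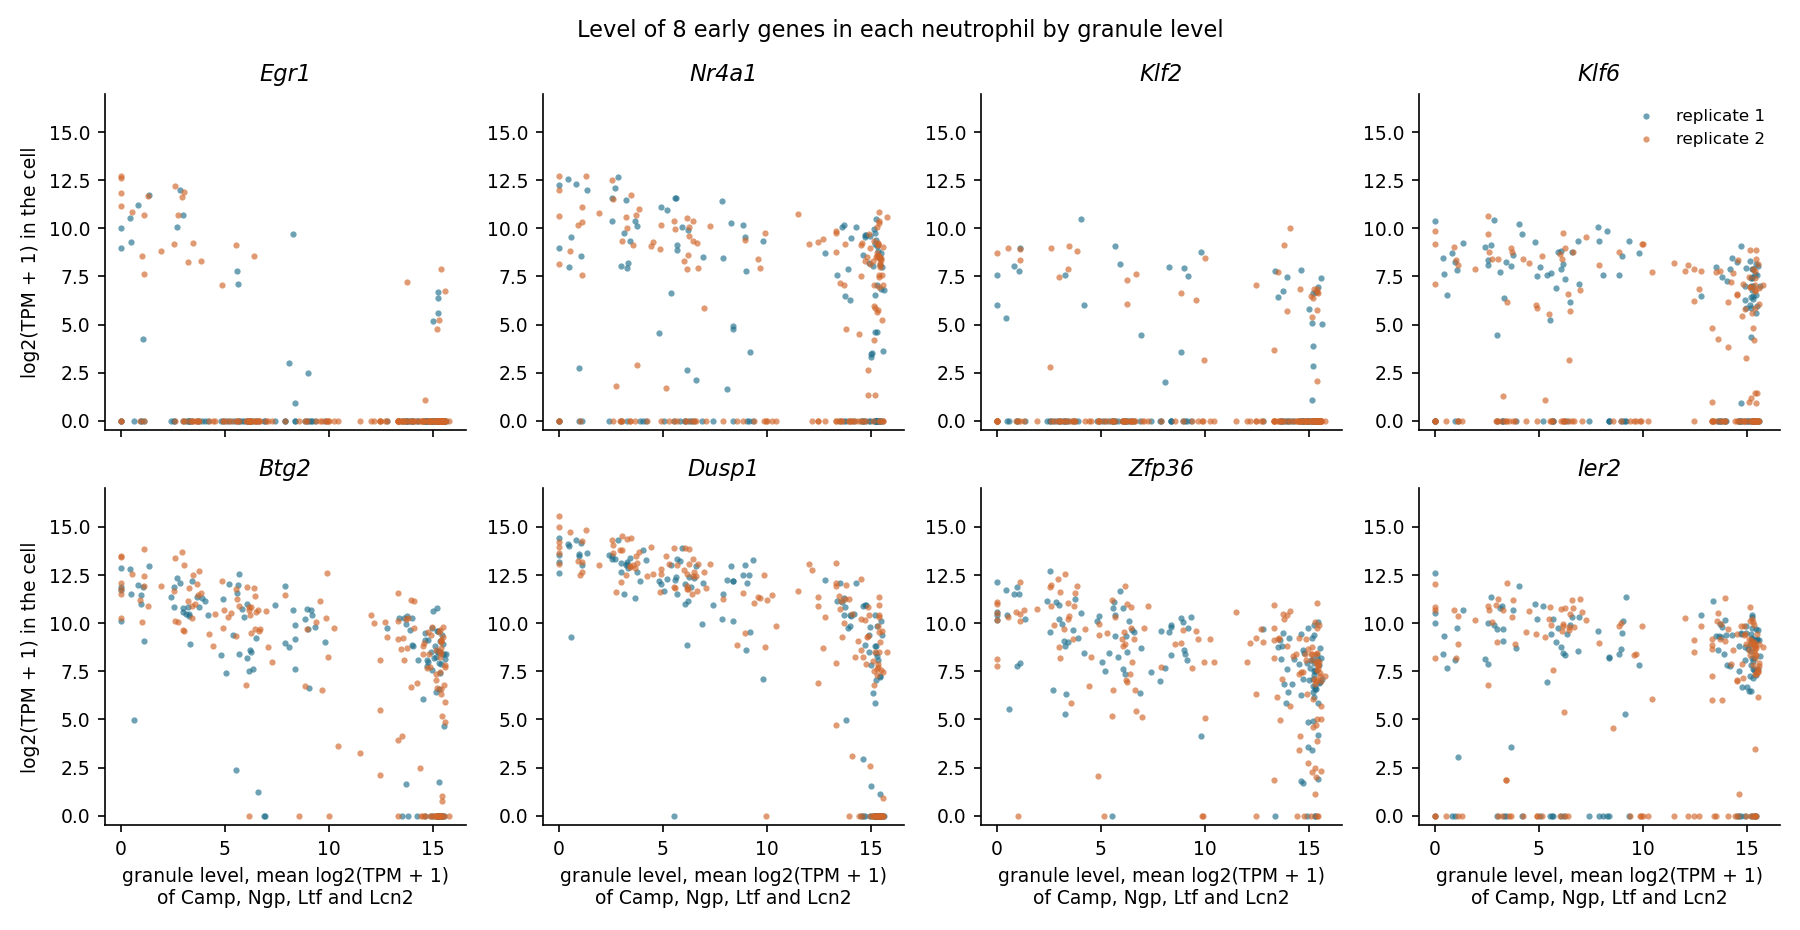
Level of 8 genes, as log2(TPM + 1), in each of 286 neutrophils against the cell's granule level, with 1 point per cell coloured by replicate. Dusp1, Btg2 and Zfp36 slope down from left to right and Egr1 is above 0 mostly at the left, while Klf2, Klf6, Nr4a1 and Ier2 have cells at 0 along the whole range.

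Btg2, the antiproliferative gene, followed the same order. Its mean was 2558 and 3424 TPM in granule-low cells, 741 and 982 TPM in granule-middle cells and 322 and 221 TPM in granule-high cells. Single cells overlapped, with a median of 2070 TPM (range 0 to 14965) in the granule-low class and 172 TPM (range 0 to 1781) in the granule-high class. The log2 fold was 3.47 (limma, SE 0.26, adjusted p = 0.00356). Btg2 was above 0 in 96 of 97 granule-low and 64 of 94 granule-high cells. Among the 21 neutrophils with 5 or more proliferation genes above 0, Btg2 was above 0 in 10 cells (47.6%, exact 95% interval 25.7% to 70.2%) and Dusp1 in 9 cells (42.9%, 21.8% to 66.0%). Of the 21, 15 were granule-high, a class in which Btg2 was above 0 in 68.1% and Dusp1 in 55.3% of cells. That class includes these 15 cells, so its shares are no separate reference for the intervals, and no difference was tested. Without these 21 cells, the log2 fold of granule-low over granule-high cells was 3.25 for Btg2 and 4.63 for Dusp1.

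Zfp36 was present in nearly every neutrophil, above 0 in 271 of 286, and differed in level. Its mean was 1385 and 1516 TPM in granule-low cells, 468 and 507 TPM in granule-middle cells and 235 and 239 TPM in granule-high cells. The replicates lay close together within each class, and the log2 fold was 2.61 (limma, SE 0.17, adjusted p = 0.00305).

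Ier2, which encodes a small nuclear protein, showed the smallest difference. Its mean was 877 and 878 TPM in granule-low, 556 and 621 TPM in granule-middle and 396 and 418 TPM in granule-high cells, a log2 fold of 1.11 (limma, SE 0.17, adjusted p = 0.0198). The share of cells went the other way, with Ier2 above 0 in 73.2% of granule-low and 87.2% of granule-high cells. When log values of single cells were averaged, which weights detection more, the log2 fold of Ier2 was -0.52 and was not called (limma adjusted p = 0.340). Within cells of 1300 to 2000 genes detected the fold was 0.33 and was not called either (limma adjusted p = 0.485).

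**Figure D3:**
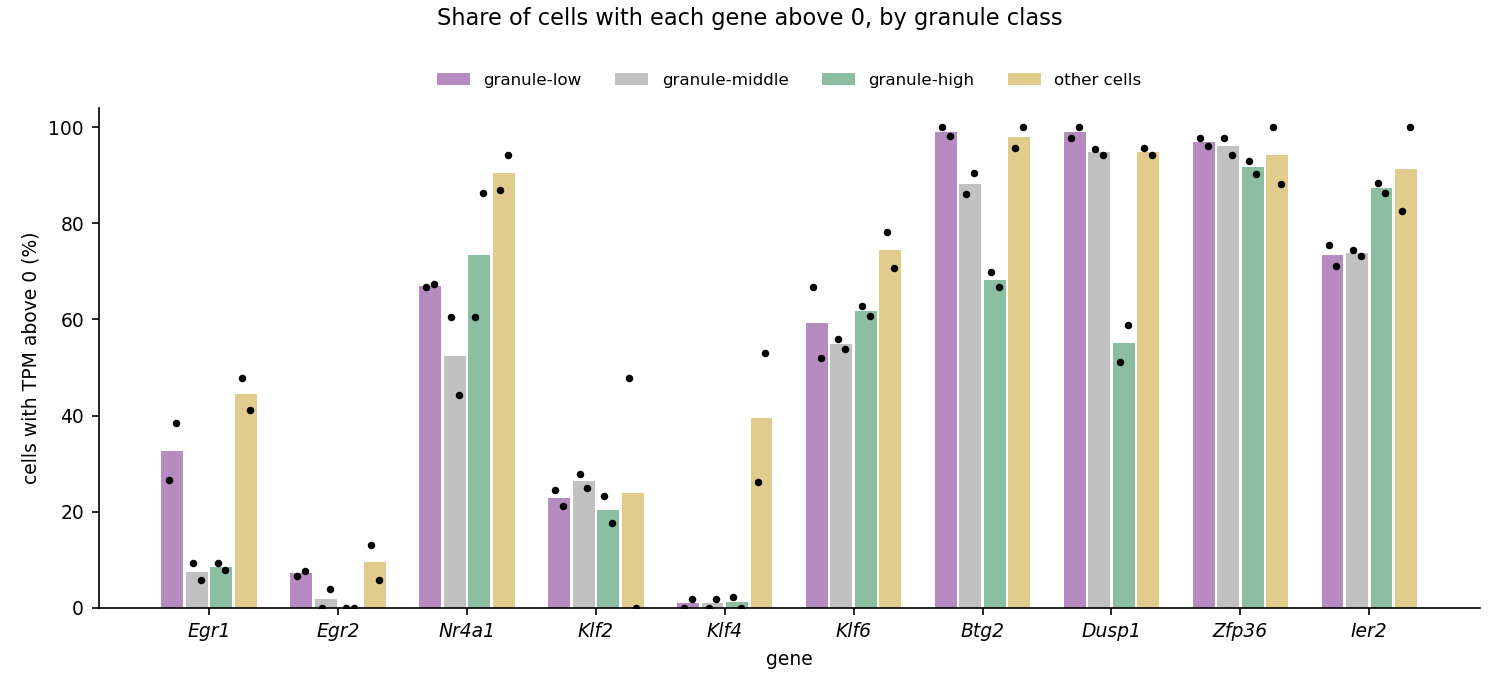
Share of cells with TPM above 0 for each of the 10 genes in the 3 granule classes and the other cells, with bars at the mean of 2 replicates and points at each replicate. Dusp1 drops to 51.2% and 58.8% in granule-high cells, while Ier2 is above 0 more often there than in granule-low cells.

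The direction of these differences was the same on each of the 4 plates for the 8 tested genes. On single plates the log2 fold of Dusp1 ranged from 4.43 to 5.55, that of Egr1 from 5.62 to 6.78 and that of Ier2 from 0.19 to 1.72. Within cells of 1300 to 2000 genes detected (67 granule-low and 32 granule-high before the classes were drawn again), Egr1, Nr4a1, Btg2, Dusp1 and Zfp36 stayed called, with log2 folds of 6.07, 1.9999, 2.56, 3.27 and 2.07. When the granule level was first adjusted for the number of genes detected, the log2 fold of Dusp1 was 3.19, that of Btg2 2.32 and that of Zfp36 1.999, all called, and Klf2 at 0.74 and Ier2 at 0.65 lost the call. Without the 2 granule-low cells that had 2 or more B cell genes above 0, and without the cells that had 2 or more of the monocyte genes, all 8 genes stayed called. These fits tested 4009 and 3982 genes, and the shares called are not given here, so the count cannot be set against them. The part of RNA content per cell in these shares of TPM was not tested.

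**Figure D4:**
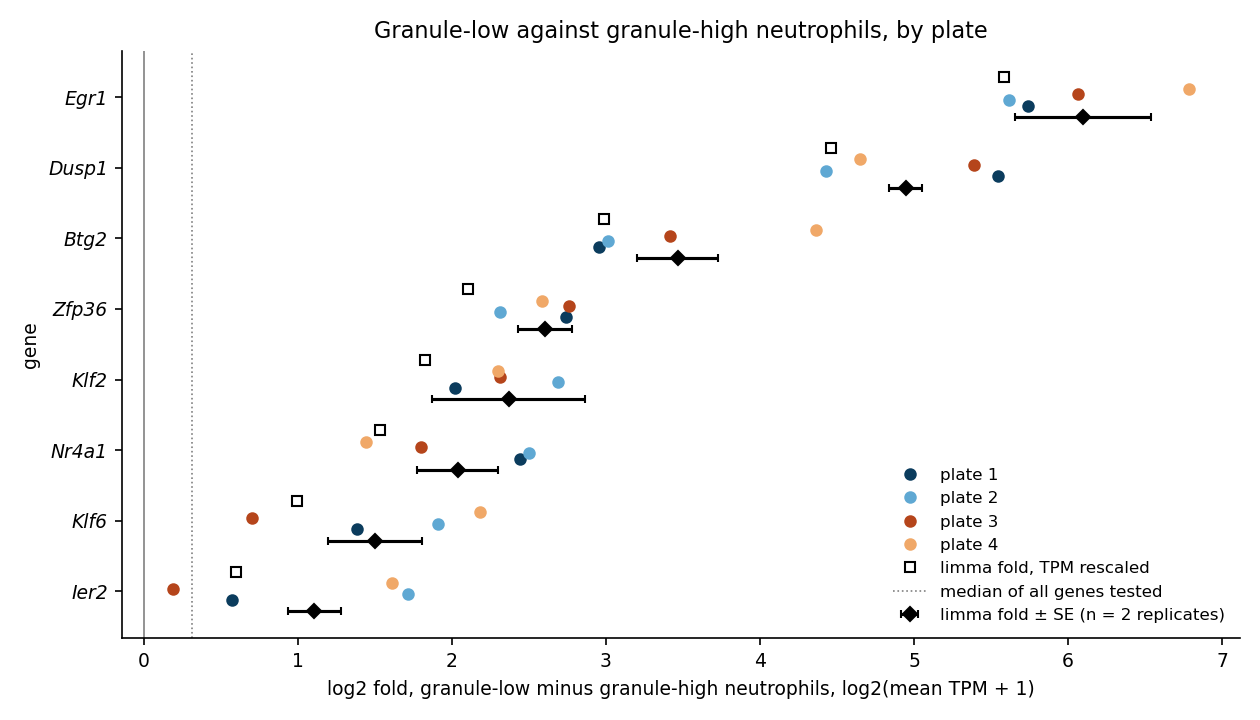
Log2 fold of granule-low over granule-high neutrophils on the log2(mean TPM + 1) scale for 8 genes: coloured points are the 4 plates, black diamonds the limma fold with its SE (n = 2 replicates), open squares the fold after TPM was rescaled, and the dotted line the median of all genes tested (0.31). All points of all 8 genes lie above 0, with Egr1 and Dusp1 farthest to the right and Ier2 on plate 3 at 0.19.

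Within a plate, the genes varied together from cell to cell. Over the 28 pairs of the 8 genes above 0 in at least 10% of neutrophils, the mean Spearman rho was 0.205. It was 0.209, 0.233, 0.125 and 0.252 on plates 1 to 4, which held 286 neutrophils between them. These cells share library preparation, and their read depth is unknown. Of the 28 pairs, 16 had a positive rho on all 4 plates and 0 had a negative rho on all 4. Btg2 with Dusp1 (0.706), Dusp1 with Zfp36 (0.626) and Btg2 with Zfp36 (0.552) stood first, ahead of Egr1 with Btg2 (0.365). Klf2 and Klf6 varied with little else, and Klf2 with Ier2 had a mean rho of -0.01.

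The likeness of the closest pairs was lower once the granule level and the number of genes detected were adjusted for. Dusp1 had a rho of -0.843 with the granule level, Btg2 -0.686, Zfp36 -0.525 and Egr1 -0.334, while Nr4a1, Klf6, Ier2 and Klf2 lay between -0.159 and -0.070. The granule level itself had a rho of 0.730 with the number of genes detected. Adjusted for that number, the rho with the granule level was -0.705 for Dusp1, -0.500 for Btg2, -0.328 for Zfp36 and -0.292 for Egr1. Adjusted for both measures, the pairs' mean rho was 0.120, Dusp1 with Zfp36 had 0.380, Btg2 with Dusp1 0.311 and Btg2 with Zfp36 0.283, and 11 of 28 pairs were positive on all 4 plates. Nr4a1 with Egr1 moved little, from 0.29999 to 0.264. These correlations across cells are descriptions, and cells of a plate are not replicates.

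**Figure D5:**
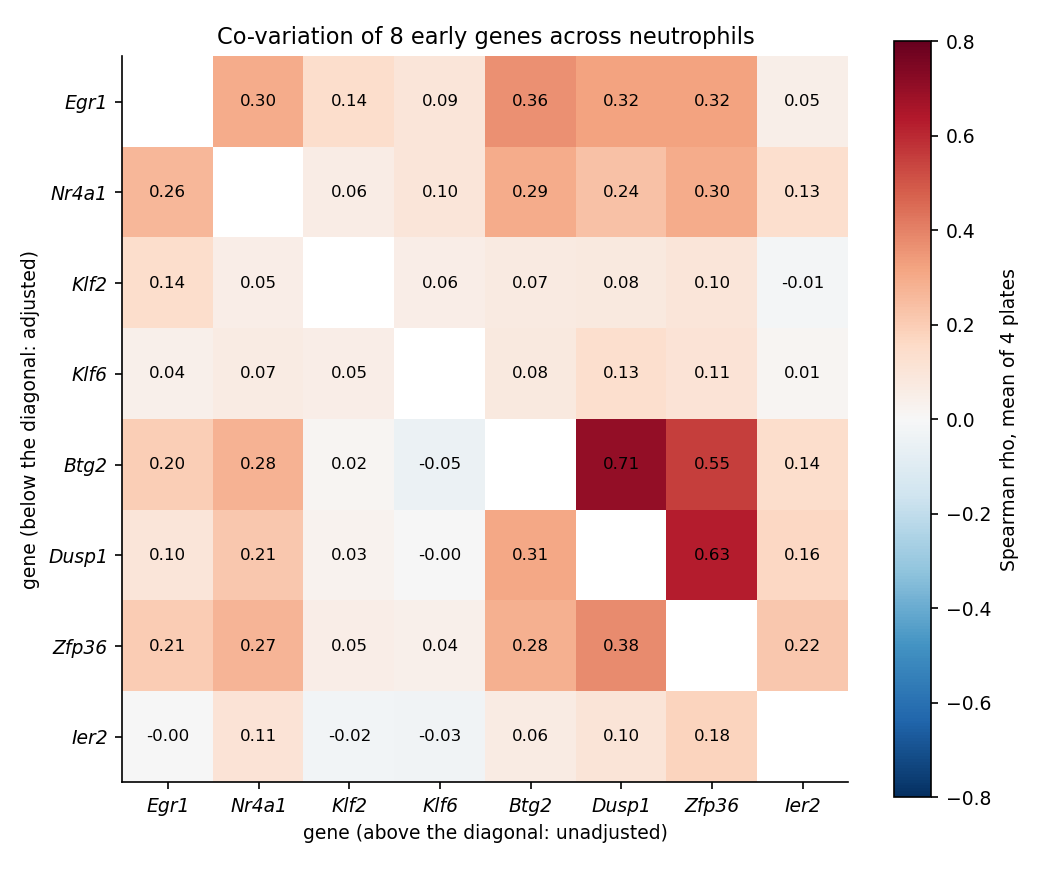
Mean over 4 plates of Spearman rho between 8 genes across neutrophils, as deposited above the diagonal and adjusted for genes detected and granule level below it. Btg2, Dusp1 and Zfp36 form the darkest block above the diagonal (0.55 to 0.71) and remain the highest below it (0.28 to 0.38).

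The genes whose pattern was most like the joint score of the 10 included both AP-1 genes and genes of other roles. Of 2773 candidates, Junb had the highest mean rho with the score (0.660), and Fos (0.541), both subunits of the AP-1 factor, was also among the first 10. The others were Srgn (0.602), the granule proteoglycan serglycin, the ferritin genes Ftl1 (0.578) and Fth1 (0.570), Selplg (0.575), Il1b (0.557), Csf3r (0.549), Nlrp3 (0.540) and H2-D1 (0.528). Adjusted for genes detected and granule level, Junb kept 0.409, Fos 0.327, Fth1 0.309 and Nlrp3 0.305. The most opposed were Ngp (-0.594), Camp (-0.559), Chi3l3 (-0.513), Lcn2 (-0.500) and Ly6i (-0.492), of which Ngp, Camp and Lcn2 define the granule level. H2-D1 and Ly6i have near-identical relatives, so their values are uncertain.

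Taken one by one, the genes had different nearest neighbours. Dusp1 was most like Csf3r (0.774), the G-CSF receptor gene, and Srgn (0.772). Btg2 was most like Dusp1 and Junb (0.698), and Zfp36 was most like Dusp1 and Junb (0.616). Egr1 was most like Pla2g7 (0.379) and Btg2, and Nr4a1 was most like Zfp36 (0.296) and Btg2 (0.295). For Ier2 (Fth1, 0.257, and Dnaja1, 0.238), Klf2 (Bri3bp, 0.244, and Ccrl2, 0.189) and Klf6 (Mob3a, 0.224, and H2-Q10, 0.215) the highest values were low.

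Relatives of the 10 genes and the rest of the early response were read from the same limma fit. Of the AP-1 genes, 5 of 9 tested were higher in granule-low cells and 0 lower, among them Junb (9613 and 12132 against 1223 and 1058 TPM, log2 fold 3.25) and Fos (8072 and 9182 against 1591 and 1950 TPM, log2 fold 2.29). Atf3 had 838 and 571 TPM in granule-low cells and is listed at 0 in granule-high cells. Fosb had a mean of 60.4 and 116 TPM in granule-low cells and of 0.287 and 0 TPM in granule-high cells. Both passed the filter through cells outside the granule-high class, so their calls are descriptions. Of the other early response genes, 10 of 16 were higher and 0 lower, with Gadd45b (log2 fold 3.69), Nfkbia (1.73), Csrnp1 (3.33) and Socs3 (5.09) first by adjusted p. The shares of both lists lie above the 11.6% of all genes called higher. Both counts hold genes that granule-high cells hardly showed, such as Atf3, Fosb and Socs3 (4.74 and 6.31 TPM there). These counts are therefore descriptions, and no test of the lists was made.

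Not every family moved as a whole. Btg1 (2.71), Zfp36l2 (3.87) and Ier3 (1.49) were called higher, each the single call in its family (1 of 2 tested in each). Of 4 other KLF genes tested, 0 were called, with Klf13 at 0.41 and Klf7 at -0.84, and of 2 other dual-specificity phosphatases 0 were called, with Dusp6 at 1.51 (limma adjusted p = 0.0824) and Dusp11 at 0.63. Of 11 tested genes of the SRF cofactor, ETS, CREB and MAP kinase list, 0 were called. Their median log2 fold was 0.12, with Rps6ka1 at -0.46 and Map2k1 at 0.13. EGR relatives with the NAB corepressors (4 genes) and the NR4A relatives (2 genes) held no gene that passed the filter.

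Messages that Zfp36 protein is known to bind were read from the same fit. Of all genes tested, 11.6% were called higher and 4.23% lower. Il1b had 15256 and 18619 TPM in granule-low and 116 and 227 TPM in granule-high cells (log2 fold 6.69), and Cxcl2 (4.04) and Ptgs2 (5.02) were also called, 3 of 4 tested, whereas Tnf had a log2 fold of -0.15. Of 5 heat shock genes, which respond to dissociation stress in many tissues, Hspa8 (0.58) and Dnaja1 (1.32) were called higher; the part of dissociation was not tested. Of 3 proliferation genes tested, Ube2c (-4.43) and Birc5 (-4.34) were called lower.

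The 40 cells outside the neutrophils were of more than one kind. Monocyte markers were frequent, with Ccr2 above 0 in 70.0%, Fn1 in 67.5% and Ms4a6c in 82.5% of the cells, and 12 of the 40 had 5 or more proliferation genes above 0. The 6 cells with high Csf3r, 4 of replicate 1 and 2 of replicate 2, had few genes detected (1161 to 1553) and carried much of the early gene RNA of the whole class. They held 89.6% of its Egr1 TPM, 100% of its Egr2, 61.0% of its Dusp1 and 62.3% of its Btg2, but 0% of its Klf4. The results of the 10 genes are therefore given with and without them, a comparison chosen after seeing the data.

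Against all 40 other cells, Egr1 and Nr4a1 were called lower in neutrophils and 0 of the 10 genes were called higher (limma adjusted p under 0.05), where 20.5% of 7516 genes were called lower and 5.15% higher and the median log2 fold was -0.81. Klf4 and Egr2 passed the filter only through the other cells, the group in which they are high, so their values are given as a description. Rescaling TPM moved that median to -0.44 and the calls from 387 higher and 1544 lower to 503 higher and 1027 lower, with Dusp1 then called higher in neutrophils at 0.53. Without the 6 cells, the calls were 571 higher and 1869 lower and the median was -0.86.

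The EGR genes were high in the 6 cells and low in the rest. Egr1 had 135 and 280 TPM in neutrophils and 856 and 715 TPM in the other cells (log2 fold -2.001, limma, SE 0.34, adjusted p = 0.000759). It ranged from 2912 to 6236 TPM in the 6 cells, and its mean was 132 and 54.3 TPM in the other 34, with a highest value of 951 TPM. Without the 6 cells the log2 fold of Egr1 was 1.19 in the opposite direction and was not called (limma adjusted p = 0.116). Egr2 had 9.77 and 22.4 TPM in neutrophils and 81.8 and 96.8 TPM in the other cells, where it was above 0 in 4 of the 6 cells and in 0 of the 34.

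Nr4a1 and Klf4 were present in the 34 cells as well. Nr4a1 had 627 and 562 TPM in neutrophils and 1797 and 1607 TPM in the other cells (log2 fold -1.52, limma, SE 0.21, adjusted p = 7.45e-05). Without the 6 cells, the other cells had 829.8 and 1602 TPM of Nr4a1, and the gene stayed called lower in neutrophils with a log2 fold of -0.96 (limma adjusted p = 0.0216). Klf4, a factor that promotes monocyte differentiation in mouse, had 0.033 and 0.185 TPM in neutrophils and 31.3 and 53.4 TPM in the other cells, where it was above 0 in 0 of the 6 cells and in 15 of the 34.

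The feedback genes were not called against all 40 other cells, and Dusp1 and Btg2 were called once the 6 cells were left out. Dusp1 had 4229 and 5232 TPM in neutrophils and 4134 and 3373 TPM in the other cells (log2 fold 0.33, limma adjusted p = 0.128). Its mean was 16256 and 13940 TPM in the 6 cells and 1582 and 1964 TPM in the 34, which lies between granule-low (9183 and 12251 TPM) and granule-high neutrophils (292 and 404 TPM). Without the 6 cells, Dusp1 (log2 fold 1.42, limma adjusted p = 2.04e-05) and Btg2 (1.43, limma adjusted p = 0.00100) were called higher in neutrophils. The 6 cells were set apart by Csf3r, the gene most like Dusp1 across neutrophils (rho 0.774). Neutrophils high in Csf3r were kept, so these 2 calls are descriptions. The log2 fold with and without them was 0.20 and 1.43 for Btg2, -0.16 and 0.58 for Zfp36, -0.36 and -0.47 for Ier2 and 0.29 and 0.82 for Klf6. Klf2 had 48.4 and 47.6 TPM in neutrophils and 55.2 and 0 TPM in the other cells (log2 fold without the 6 cells 3.11), and was not called in either fit. When log values of single cells were averaged over all 40 cells, Ier2 was called lower in neutrophils (-1.58, limma adjusted p = 0.00565), and Dusp1 (-0.73) and Btg2 (-0.58) were not called. With a limit of 50000 TPM, which moves 22 neutrophils, 19 of them granule-low, to the other cells, Dusp1 (-1.08), Btg2 (-1.23) and Zfp36 (-0.99) were called lower in neutrophils. The share of all genes called at that limit is not given here, so these calls cannot be set against it.

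Relatives were read from the fit against all 40 cells, beside the 20.5% of all genes called lower and the 5.15% called higher. Most families had few genes tested, no test of the lists was made, and the fit without the 6 cells was not read for them. Dusp3 (log2 fold -6.79) and Dusp22 (-5.65) were called lower, 2 of 6 dual-specificity phosphatases, and Klf10 (-2.07), 1 of 6 KLF genes. Dusp3, Dusp22 and Klf10 did not pass the filter in neutrophils and entered through the other cells, where they are high. Their values, like those of Klf4 and Egr2, are descriptions. Of 9 AP-1 genes, Jun (-3.04) and Atf3 (-1.49) were lower and Mafg (2.06) higher. Of 20 other early response genes, 5 were higher, with Trib1 (2.21), Gadd45g (1.53), Gadd45a (4.76) and Gadd45b (1.24) first by adjusted p, and Bhlhe40 (-2.92) was lower. Bhlhe40 also entered through the other cells. Of 9 heat shock genes 6 were lower in neutrophils, with Hspa8 at 1122 and 1615 TPM against 3606 and 3870 TPM, and of 16 proliferation genes 10 were lower. Among these, Hspa1a, Hsph1 and Hspe1, and all 10 proliferation genes but Ube2c and Birc5, entered through the other cells, so both counts are descriptions. Of 6 messages bound by Zfp36 protein, Il1b (0.78) and Cxcl2 (1.94) were higher and Ccl3 (-2.70) and Il6 were lower, with Il6 listed at 0 in neutrophils and at 136 and 7.80 TPM in the other cells. Ccl3 and Il6 entered through the other cells as well. The 3 BTG and TOB, 2 ZFP36 and 3 IER relatives, 1 EGR or NAB gene and 1 NR4A gene held no call. Mapk3 (1.66) was the 1 call of 13 tested genes of the SRF cofactor, ETS, CREB and MAP kinase list.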

How the data were processed

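The authors deposited TPM values for 23420 genes in each cell, made with RSEM on the mm10 build per the submitters' processing notes. The aligner, the annotation and all versions were not given in the sources used here. Of 384 labelled cells, 326 have a column and 58 were not analysed here. Each cell sums to 1000000, so read depth is unknown and the number of genes above 0 stood in for it. No doublet caller was run. TPM was averaged over the cells of a class in each replicate, and log2(mean TPM + 1) was fitted in limma 3.58.1 under R 4.3.3 with a replicate block, a variance trend and robust shrinkage, and p was adjusted by Benjamini-Hochberg (threshold 0.05). With only 1 residual degree of freedom, each gene's variance comes largely from the prior over all genes. Folds understate changes of low genes. For the contrast with the other cells, the low-value filter (at least 5 TPM on average and detection in 10% of cells) had to be passed in either class. The genes that define a contrast were not tested in it. The block comes from both classes sharing plates. The code was tested on simulated data.

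The members and the gene lists were chosen with earlier results of these data known. All 10 members are named; from the lists, up to 4 called genes per direction by adjusted p, or the 2 most abundant where none was called; for likeness, the 10 highest and 5 lowest rho. Intervals on shares of cells cover counting error only. Alternatives changed the averages, pseudocount, filter, classes, scaling, neutrophil limit and cells used. Spearman rho was computed in Python 3.11.15 (scipy 1.17.1).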

Additional observations from a re-analysis of the deposited data

How the results depend on the processing

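Egr1, Btg2, Dusp1 and Zfp36 were called higher in granule-low neutrophils under each alternative that gave a test except the one without a filter on low values, where limma called 0 of 13063 genes and 0 members (1862 genes and 9 members at an unadjusted p under 0.05). Egr1 passed the filter of the main fit through granule-low cells, so its calls are descriptions. In that contrast the 642 genes called became 2081 with means of log values (398 higher and 1683 lower, 4 members called, with Nr4a1, Klf2, Klf6 and Ier2 losing the call), 1100 with 2 classes, 380 with the granule level adjusted for genes detected, 1065 with a limit of 50000 TPM and 189 with 1300 to 2000 genes detected, where 5 members were called; 5 members were also called with TPM rescaled. The 1 member fold that reversed was that of Ier2 with means of log values (-0.52), and 21 other member folds lost their call.

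Against the other cells, 3258 genes were called with means of log values, 0 without a filter (2313 genes at an unadjusted p under 0.05; 0 members called, 4 under 0.05), and 7 members with a limit of 50000 TPM. At that limit 6661 genes were tested and the share called is not given here, so the count of members cannot be set against it. The 4 members called against all other cells include Klf4 and Egr2, which passed the filter only through those cells. Folds that reversed there were those of Klf6 (-0.31), Btg2 (-0.58) and Dusp1 (-0.73) with means of log values, Zfp36 with TPM rescaled (0.071), Egr1 (1.19) and Zfp36 (0.58) without the 6 cells high in Csf3r, which leaves out cells by its construction, and Klf2 (-0.74), Klf6 (-0.41), Btg2 (-1.23) and Dusp1 (-1.08) with a limit of 50000 TPM, which moves cells between the groups by its construction; for the others the cause was not tested.

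The mean rho over pairs was 0.178 adjusted for genes detected, 0.150 as Pearson r of log values, 0.178 with TPM rescaled, 0.120 adjusted for genes detected and granule level, and 0.189 to 0.221 with either replicate left out. The rho of Ier2 with the granule level reversed as Pearson r (0.047). Without the replicate block, 812 genes were called in the first contrast and 1398 in the second, with 8 and 4 members. Depth is unknown, so a share of cells near 0 means not detected, not absent. Of 40 alternative shares of neutrophils, 10 moved by more than the spread between replicates. With either replicate left out there is no test; the folds of the 8 genes in the first contrast kept their sign.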
